A study of Mus musculus with 24 samples.

Results

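The genes described here code for proteins that shorten the poly(A) tail of mRNAs or bring the deadenylase to its targets. They are 9 of the 26995 gene symbols in the count tables: Zfp36, Zfp36l1 and Zfp36l2 of the ZFP36 family, Btg1, Tob1 and Tob2 of the BTG/TOB family, and Cnot1, Cnot7 and Cnot8 of the CCR4-NOT complex. Of the 3′UTR entries of a gene, the one with the most total reads, averaged across all 24 libraries, was used. The set was chosen by the labelled reads of Zfp36l1, which differed between treatments in a way that changed with the day. The values of Zfp36l1 in labelled reads, and its difference between treatments in total reads, are therefore given as a description with no test. Its time course in total reads with DMSO was tested. That test is not fully apart from the choice, since labelled reads are part of the total reads and the same libraries were used.

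ZFP36 proteins are zinc finger proteins that bind AU-rich sequences in 3′UTRs and recruit CCR4-NOT, the main cytoplasmic deadenylase of animal cells. BTG and TOB proteins bind the catalytic subunits of the same complex and are known for restraining proliferation. In CCR4-NOT, Cnot1 codes for the scaffold, and Cnot7 and Cnot8 code for paralogous catalytic subunits. Several of the recruiters are immediate-early genes, with short-lived mRNAs that carry AU-rich sequences of their own.

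All libraries came from 3T3-L1, a clonal mouse pre-adipocyte line that turns into lipid-storing adipocytes in culture. Until induction the cells grew in medium with bovine calf serum. For induction, confluent cells were given fetal bovine serum, dexamethasone, 3-isobutyl-1-methylxanthine and insulin, and from day 3 a maintenance medium with serum and insulin. The libraries of day −2 precede induction, so each comparison with day −2 also compares media. Cells were kept with DMSO, the vehicle, or with 0.5 μM ML-792, which inhibits the SUMO-activating enzyme SAE1/2. The text of the methods names day −2 as the start of ML-792 for a viability assay, and no start for these libraries. Cells of both treatments were harvested at days −2, 1, 3 and 7 with 3 replicates (A, B and C) for each of the 8 groups, and all of them were exposed to 100 μM 4-thiouridine for 45 min before harvest. Total reads, from 3′ mRNA sequencing, measure the mRNA that was present. Labelled reads hold at least 1 T to C conversion and measure mRNA made during the exposure, plus a background of miscalled bases. No library without 4-thiouridine was analysed here, so this background was not measured directly.

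The libraries held between 13554718 and 27013352 total reads and between 115709 and 820046 labelled reads over all entries. Labelled reads made up 3.17% ± 0.49 (SD, n = 3) of the reads of a library in DMSO at day −2, and 1.27% ± 0.08, 1.03% ± 0.11 and 1.03% ± 0.09 (SD, n = 3 each) at days 1, 3 and 7. The summed normalized total reads of 7 adipocyte markers rose from between 22256 and 23860 per library at day −2 to between 628090 and 703367 at day 7 in DMSO. Those of 6 pre-adipocyte markers fell from between 45586 and 78177 to between 4363 and 4849. The summed reads of 4 macrophage markers stayed at or below 153 and those of 3 endothelial markers at or below 19.7 in all libraries. Ptprc was at 0 throughout. Adgre1 and Cdh5 were at 0 in all DMSO libraries, with group means of at most 3.52 and 1.99 with ML-792. The other markers had some reads, with highest group means of 108 for Cd68, 38.9 for Csf1r, 11.3 for Pecam1 and 1.44 for Kdr. In bulk libraries such as these, fewer cells of a type and less RNA per cell cannot be told apart.

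The 3 ZFP36 mRNAs shared a sequence feature that was not used to choose them. Each of their 3′UTR entries held 1 copy of the AU-rich nonamer TTATTTATT, the longest of 3 motifs searched on the transcript strand, and none of the other 6 members did. Of all 26923 entries read from the genome, with 1 entry per symbol, 5.58% held the nonamer. Among entries within 20% of their length the share was 3.69% for Zfp36 and 8.97% for Zfp36l1 and Zfp36l2. The nonamers are shown because this is the kind of site that ZFP36 proteins bind. The stretches are given 5′ to 3′ on the transcript strand from GRCm38.p6 (mm10), with the nonamer in capitals.
Zfp36, chr7:28376950-28376979, minus strand: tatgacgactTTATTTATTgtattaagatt
Zfp36l1, chr12:80108166-80108195, minus strand: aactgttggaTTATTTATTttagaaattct
Zfp36l2, chr17:84184913-84184942, minus strand: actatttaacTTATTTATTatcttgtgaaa

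The shorter heptamer TATTTAT, which lies within the nonamer, occurred 3 times in each ZFP36 entry. As many or more were found in 1.01% of entries within 20% of the length of Zfp36, and in 3.36% for the other 2 genes. Tob2, Cnot7 and Cnot8 held 1 heptamer each, which is no rare count, since between 21.3% and 41.9% of entries of like length held at least 1. Btg1 and Tob1 had none. The heptamer of Tob2, in capitals, lay in another context.
Tob2, chr15:81849859-81849888, minus strand: tatcacctgctTATTTATgtacgaggttgg
The pentamer ATTTA, which both longer motifs contain, occurred between 1 time (Cnot1) and 11 times (Btg1). As many or more were found in 68.3% and 20.1% of entries within 20% of their lengths. That share was lowest for Zfp36l1, at 4.2% for 9 copies. Of all entries, whatever their length, 55.9% held at least 1. A match of letters is a description and does not show that a protein binds there. T bases made up between 26.4% (Tob2) and 39.1% (Tob1) of the members' entries, against a median of 28% over all entries. A read with more T bases has more chances of a conversion.

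Over differentiation in DMSO, total reads of the 3 ZFP36 members fell and those of the 3 BTG/TOB members rose. Btg1 was called higher at days 1 and 3 only, and no CCR4-NOT subunit passed the test. For each later day the difference from day −2 was tested with edgeR's quasi-likelihood method over all 26563 entries with enough reads, at a Benjamini-Hochberg adjusted p under 0.01. By this rule 6 of the 9 members, Zfp36l1 among them, changed on at least 1 day, against 42.7% of all entries tested. At day 1, 5.94% of all entries were higher and 7.81% lower (13.7% in either direction), at day 3 14.5% and 16.3% (30.8%), and at day 7 15.9% and 16.9% (32.7%). Counted with 1 entry per gene, as for the members, the shares were higher, at 17.0%, 36.4% and 38.4% of 13331 genes in either direction. All 9 members had passed the filter on low counts. The median change of all entries lay between −0.04 and 0.03 on the log2 scale at the 3 days.

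**Figure D1:**
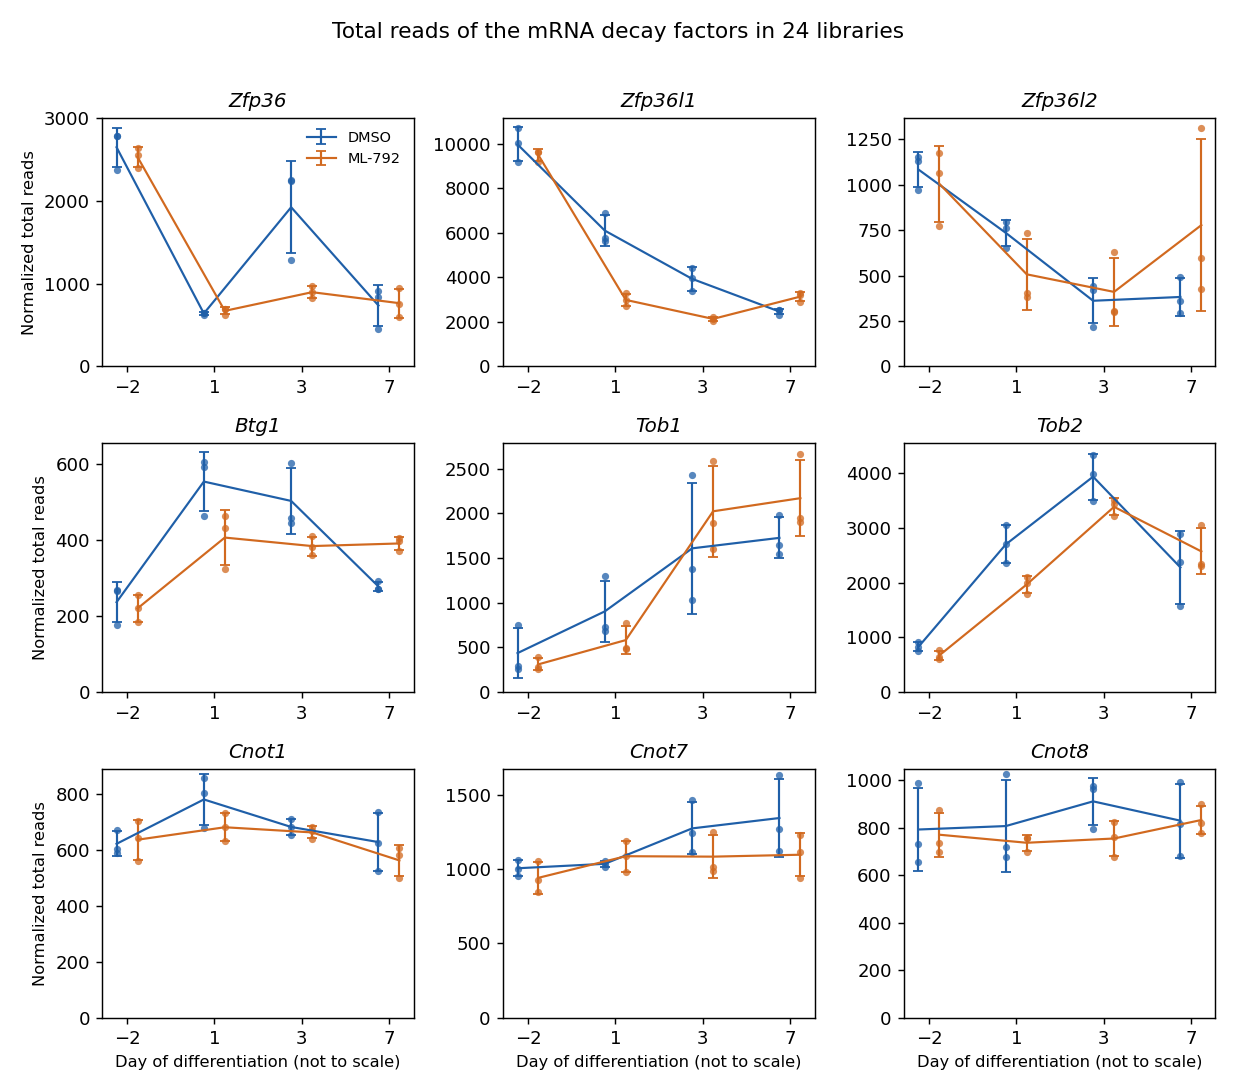
Normalized total reads (y axis, linear from 0) of each member against the day (x axis, not to scale). Points are the 24 libraries, lines join the means of 3 replicates and bars are 1 SD. Zfp36 in DMSO drops at day 1, returns at day 3 and drops again by day 7, while its ML-792 libraries stay between 592 and 970 from day 1 on. Zfp36l1 falls steadily in DMSO. In ML-792 it falls sooner, and its day 7 libraries lie above those of day 3 and above those of DMSO at day 7. Tob1 and Tob2 rise in both treatments, and the Cnot panels stay nearly flat.

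Zfp36, which codes for tristetraprolin, the founding member of its family, fell, came back and fell again. Its entry lies at chr7:28376784-28377557. Normalized total reads in DMSO were 2377, 2790.2 and 2780.2 in replicates A, B and C at day −2 and 651, 652 and 619 at day 1. They were 1282, 2254 and 2237 at day 3 and 842, 457 and 911 at day 7. The day 1 libraries lay below all those of days −2 and 3, and replicate A of day 3 was well below B and C. On the log2 scale the change from day −2 was −2.05 ± 0.26 (SE; adjusted p = 3.4e-05) at day 1. It was −0.46 ± 0.25 (adjusted p = 0.15) at day 3 and −1.85 ± 0.26 (adjusted p = 2.5e-05) at day 7. The return from day 1 to day 3 was 3.00-fold (adjusted p = 0.0002), where 18.9% of all entries were called, and the second fall, from day 3 to day 7, was 2.61-fold (adjusted p = 0.0014), where 8.66% were. The return had an adjusted p of 0.0128 without replicate C, and the second fall 0.0131 without A and 0.025 without C.

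Zfp36l1 codes for a paralog that is known to act on cell cycle and differentiation mRNAs, and its entry lies at chr12:80107760-80109588. Total reads in DMSO were 9187, 10015 and 10716 at day −2, and 6909, 5620 and 5778 at day 1. They were 3368, 3992 and 4443 at day 3 and 2558, 2326 and 2514 at day 7. No library of one day overlapped with those of the next. The fall from day −2 on the log2 scale was −0.71 ± 0.16 (SE) at day 1, −1.34 ± 0.16 at day 3 and −2.02 ± 0.17 at day 7, with adjusted p of 0.0048, 7.9e-06 and 1.1e-07. Each later step was called too, with −0.63 ± 0.16 between days 1 and 3 (adjusted p = 0.0076) and −0.67 ± 0.16 between days 3 and 7 (adjusted p = 0.0096). The day 1 call was lost without replicate A (adjusted p = 0.057) and without C (adjusted p = 0.11). The step from day 1 to day 3 had an adjusted p of 0.3 without A and 0.042 without C, and the step from day 3 to day 7 had 0.1 without A, 0.0117 without B and 0.16 without C.

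Zfp36l2 is the family member best known from early development and blood cells, and its entry lies at chr17:84183924-84185752. Its total reads were 1129, 972 and 1151 at day −2 and 793, 654 and 759 at day 1 in DMSO. At day 3 they were 422, 219 and 444, and at day 7 they were 493, 292 and 362. The libraries of days 3 and 7 overlapped with each other and lay below those of both earlier days. The log2 change from day −2 was −0.56 ± 0.25 (SE) at day 1 (adjusted p = 0.12), −1.58 ± 0.25 at day 3 (adjusted p = 0.00011), and −1.50 ± 0.25 (adjusted p = 0.00015) at day 7. The step between days 1 and 3 was −1.02 ± 0.25 (adjusted p = 0.0057), and it was lost without replicate A (adjusted p = 0.058) and without C (adjusted p = 0.039).

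The 3 BTG/TOB members went the other way, each with its own course. Their relative Btg2, described further below, fell at days 1, 3 and 7 (log2 change −3.25, −1.65 and −2.09). Btg1, an anti-proliferative gene at chr10:96618644-96622813, had 175, 266 and 269 normalized total reads in DMSO at day −2 and 607, 592 and 465 at day 1. It had 447, 605 and 459.6 at day 3 and 271, 291 and 272 at day 7, so that the libraries of days 1 and 3 lay above all those of days −2 and 7. Compared with day −2 it rose 2.34-fold by day 1 (adjusted p = 0.00056) and 2.13-fold by day 3 (adjusted p = 0.00064). At day 7 the log2 difference was 0.23 ± 0.21 (SE; adjusted p = 0.41). Without replicate A the adjusted p at days 1 and 3 were 0.0685 and 0.029.

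Tob1, at chr11:94214729-94215495, codes for a transducer of ErbB2 signalling that also represses SMAD targets. Its total reads in DMSO were 260.3, 755 and 291 at day −2 and 682, 1294 and 732 at day 1. They were 1024, 2427 and 1373 at day 3 and 1645, 1547 and 1984 at day 7. Replicate B was the highest of its group at days −2, 1 and 3 and the lowest at day 7. It rose 3.69-fold by day 3 (adjusted p = 0.0014) and 3.96-fold by day 7 (adjusted p = 0.00089), and the log2 difference at day 1 was 1.05 ± 0.39 (SE; adjusted p = 0.069). The day 1 call was gained without replicate B (log2 change 1.36, adjusted p = 4.6e-05), while without replicates A and C the adjusted p were 0.0121 and 0.0244 at day 3 and 0.0146 and 0.0285 at day 7.

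Tob2 is the paralog of Tob1, at chr15:81848270-81850728. Total reads in DMSO were 828, 907 and 743 at day −2 and 2699.9, 3043 and 2349 at day 1. They reached 3983, 3491 and 4332 at day 3, above all those of the other days, and were 2891, 1570 and 2370.4 at day 7. The rise over day −2 was 3.26-fold at day 1 (adjusted p = 2.9e-05), 4.76-fold at day 3 (adjusted p = 5.9e-07) and 2.75-fold at day 7 (adjusted p = 3.5e-05). These calls held when any replicate was left out.

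The CCR4-NOT subunits moved far less. In DMSO, Cnot1 ranged over its 12 libraries from 525 to 858 normalized total reads, Cnot7 from 957 to 1638 and Cnot8 from 658 to 1029. The libraries of day −2 overlapped with those of every later day for Cnot8, but for Cnot1 they lay below those of day 1, and for Cnot7 below those of days 3 and 7. The log2 changes from day −2 lay between 0.01 and 0.33 for Cnot1, 0.04 and 0.42 for Cnot7 and 0.03 and 0.20 for Cnot8, with SE of 0.17 to 0.21. The smallest adjusted p of these was 0.059, for Cnot7 at day 7, where the call was gained without replicate B (log2 change 0.57, adjusted p = 0.0055). Cnot1 is at chr8:95719451-95720406, Cnot7 at chr8:40492541-40494115 and Cnot8 at chr11:58117589-58118596. Cnot1 and Cnot7 have 55 and 11 entries in the tables, some of which overlap and count the same reads.

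The labelled reads gave a different picture, because most entries had fewer of them after day −2. The median entry changed by −1.23, −1.65 and −1.51 on the log2 scale at days 1, 3 and 7. Of 8 members tested, 4 were called on at least 1 day, all of them lower, against 42.6% of the 10589 entries tested. Entries called lower made up 17.9%, 30.8% and 27.7% at days 1, 3 and 7, and entries called higher 0.586%, 1.87% and 1.75% (18.5%, 32.6% and 29.4% in either direction). With labelled reads scaled to their own library sizes the calls became 2 lower (Zfp36 and Zfp36l2) and 2 higher (Tob1 and Tob2).

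**Figure D2:**
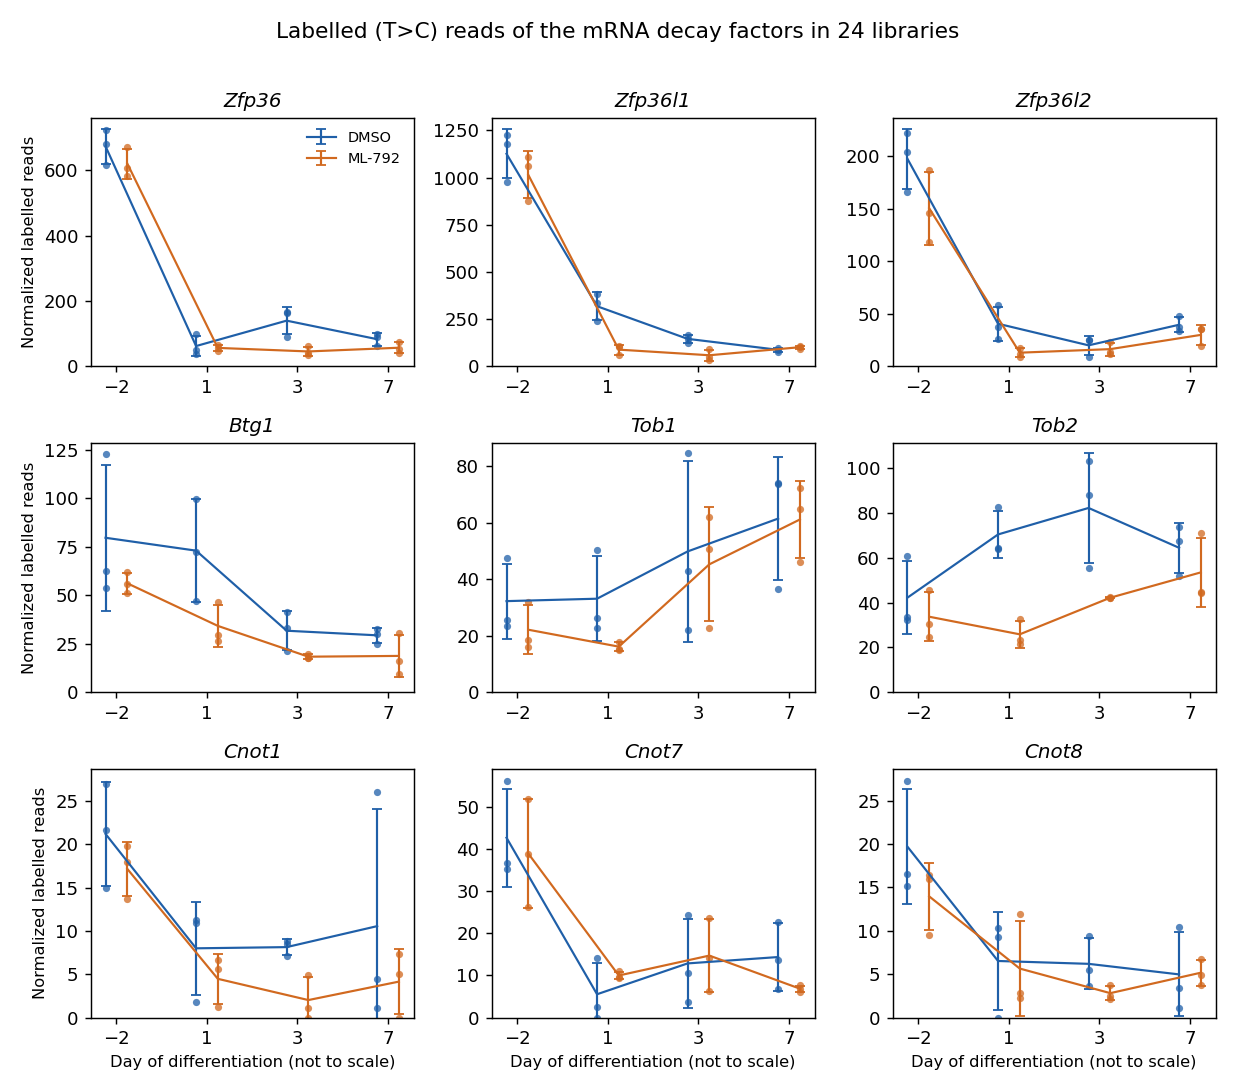
Normalized labelled reads (y axis, linear from 0) of each member against the day (x axis, not to scale), with points for the 24 libraries, means of 3 replicates joined by lines and bars of 1 SD, which are cut at 0. The 3 ZFP36 genes drop from day −2 to day 1 in both treatments. At day 1 the Tob2 libraries in ML-792, between 21.5 and 32.8, sit below those in DMSO, between 64.0 and 82.7. The Cnot genes have under 30 labelled reads in all libraries after day −2.

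Zfp36 had 680.04, 618 and 722 normalized labelled reads in DMSO at day −2, and 38.4, 50.3 and 98.5 at day 1. It had 91.5, 163 and 165 at day 3 and 91.0, 61.4 and 97.8 at day 7. All libraries after day −2 lay far below those at day −2. The fall was 10.8-fold at day 1 (adjusted p = 2.6e-10), 4.81-fold at day 3 (adjusted p = 1.1e-06) and 8.07-fold at day 7 (adjusted p = 2.7e-09). The partial return from day 1 to day 3, at 1.16 ± 0.35 (SE) on the log2 scale, missed the threshold in labelled reads (adjusted p = 0.035), where 3.03% of entries were called. Scaled to labelled library sizes, the day 3 call against day −2 was lost (log2 change −1.06, adjusted p = 0.0133) and the return was called (1.40, adjusted p = 0.0034).

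Labelled reads of Zfp36l2 were 204, 167 and 222 at day −2, and between 9.41 and 58.0 in the 9 later DMSO libraries. Its fall was 4.85-fold at day 1 (adjusted p = 2.7e-05), 9.77-fold at day 3 (adjusted p = 3.6e-08) and 4.96-fold at day 7 (adjusted p = 1.4e-05). Scaled to labelled library sizes, the log2 changes were −1.27, −2.11 and −1.18, and the day 1 and day 7 calls were lost (adjusted p = 0.0225 and 0.0244).

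Zfp36l1, given with no test, had 1177, 979 and 1224 labelled reads in DMSO at day −2 and 384, 239 and 334 at day 1. It had 126, 166 and 147 at day 3 and 88.8, 78.1 and 97.8 at day 7. No library of one day overlapped with those of the next, as in its total reads. The fitted log2 change was −1.82 ± 0.31 (SE) at day 1, −2.94 ± 0.32 at day 3 and −3.67 ± 0.33 at day 7.

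The BTG/TOB genes split in labelled reads. Btg1 had 53.7, 62.6 and 123 at day −2 in DMSO, 46.8, 99.8 and 72.4 at day 1, 21.0, 41.2 and 32.8 at day 3, and 32.6, 30.2 and 25.02 at day 7. Its log2 change was −0.12 ± 0.42 (SE) at day 1, −1.33 ± 0.44 at day 3 (adjusted p = 0.011), and −1.44 ± 0.44 (adjusted p = 0.0069) at day 7. Without replicate B the day 3 change was called as well (−1.71, adjusted p = 0.0017). The day 7 call was lost without replicate A (adjusted p = 0.0229) and without C (adjusted p = 0.23, log2 change −0.89). Tob1 and Tob2 did not fall with the median entry. The log2 changes of Tob1 were 0.04 ± 0.47, 0.63 ± 0.47 and 0.93 ± 0.47 (SE) at days 1, 3 and 7, and those of Tob2 were 0.74 ± 0.40, 0.96 ± 0.41 and 0.61 ± 0.41, and none passed the test. Scaled to labelled library sizes, Tob2 was higher at days 1, 3 and 7 (log2 change 1.77, 2.17 and 1.75, the largest adjusted p being 0.00049), and Tob1 at days 3 and 7 (1.80 and 1.98, adjusted p = 0.0028 and 0.00086). Without replicate B, Tob1 was called higher at day 7 on the scale of the total reads too (log2 change 1.59, adjusted p = 0.0056).

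Labelled reads of the Cnot genes were few. Cnot7 had 56.1, 35.2 and 36.6 at day −2 and 14.0, 0 and 2.53 at day 1, and its log2 change of −2.94 ± 0.71 (SE) was called at day 1 (adjusted p = 0.0012), though not without replicate C (adjusted p = 0.0198). Cnot1 and Cnot8 had between 15.0 and 27.3 at day −2 and between 0 and 26.0 later. They were not called, with log2 changes between −0.98 and −1.94 and SE of 0.73 to 0.85. Without replicate B, whose day 7 library held the 26.0 reads of Cnot1, Cnot1 was called lower at day 7 (log2 change −3.05, adjusted p = 0.0045). At this depth changes of the size of the median entry were not detectable for these genes.

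**Figure D3:**
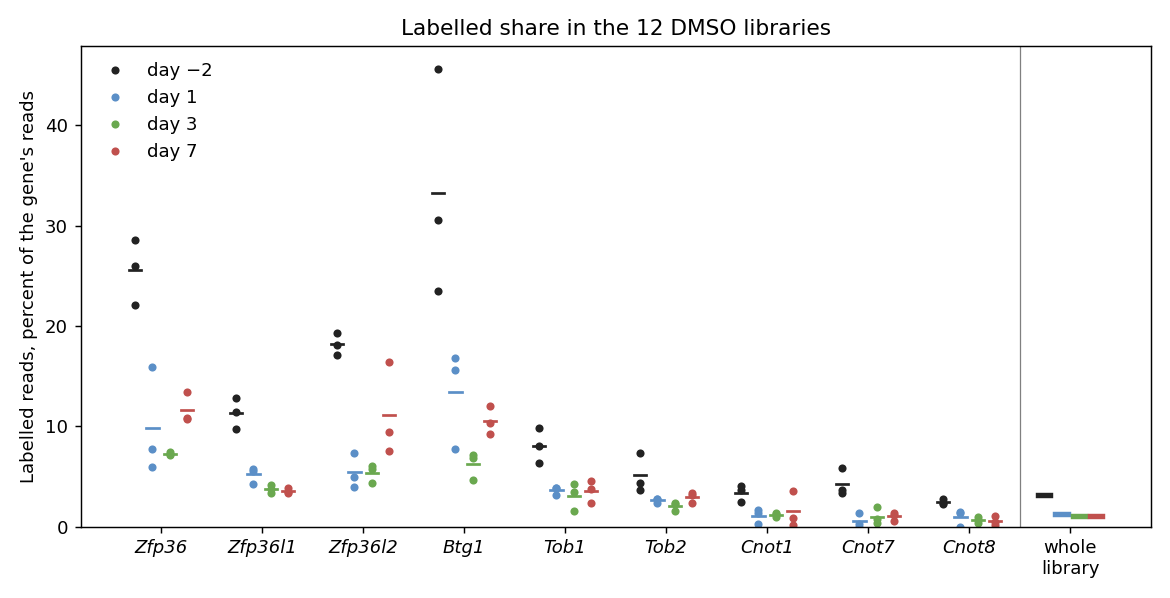
Labelled reads as a percent of the reads of the gene (y axis, linear from 0) in the 12 DMSO libraries, by gene (x axis) and day (colour). Points are libraries and short lines are means of 3 replicates. The thick lines at the right are the means over whole libraries. Btg1, Zfp36 and Zfp36l2 have the highest shares at day −2, with means of 33.2%, 25.6% and 18.2%, and the Cnot genes have means of 2.44% to 4.28%.

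The labelled share of a gene, its labelled reads as a percent of its total reads, rises with the turnover of its mRNA and with its T bases. At day −2 in DMSO it was 30.6%, 23.5% and 45.6% for Btg1 in replicates A, B and C, and 28.6%, 22.1% and 26.0% for Zfp36. It was 18.1%, 17.1% and 19.3% for Zfp36l2 and 12.8%, 9.77% and 11.4% for Zfp36l1. Among the 7826 genes with a mean of at least 200 reads, whose median share was 2.31%, these 4 lay at percentiles 99.9, 99.8, 98.9 and 96.7. Tob1 had 9.85%, 6.30% and 8.08%, and Tob2 had 7.35%, 3.69% and 4.33%. Cnot1, Cnot7 and Cnot8 had means of 3.39% ± 0.81, 4.28% ± 1.38 and 2.44% ± 0.28 (SD, n = 3 each), at percentiles 68.0, 77.5 and 52.6. By their means, all 6 recruiters had a higher share than the 3 subunits, though the lowest Tob2 library lay below the highest Cnot7 library. The 1st percentile of the share among genes with at least 1000 reads was 0.215% on average at day −2 and between 0.0491% and 0.0892% at the later days. Its lowest library value was 0 at days 1 and 3. It is a rough guide to conversions without label and sets no upper limit to them, since counting error can lower it.

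The exact 95% binomial interval (Clopper-Pearson) of the share of Zfp36 in replicate A at day −2, from 2967 reads, ran from 27.0% to 30.3%, and that at day 1, from 695 reads, from 4.27% to 7.92%. Such intervals cover counting error only, since reads without molecular identifiers are not independent molecules. For Cnot7 in replicate B at day 1, 0 of 1131 reads were labelled, with an upper bound of 0.326%.

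All 8 members tested had a higher share at day −2 than over days 1, 3 and 7 in DMSO. The difference was 16.0 percentage points for Zfp36, 10.9 for Zfp36l2, 23.2 for Btg1, 4.66 for Tob1 and 2.59 for Tob2, and 2.12, 3.42 and 1.72 for Cnot1, Cnot7 and Cnot8. By a two-sided exact permutation test of 3 libraries against 9, the raw p was 0.0045 for 7 genes, the smallest that this design allows, and 0.0091 for Cnot1. Adjusted over the 7819 genes tested in the same way, these exact p were 0.015 and 0.023, and 51% of those genes were called. The share was higher at day −2 in 7237 of the 7819, so the direction was that of most genes. Without replicate A, B or C, 0 of 8 members and 0% of the genes were called after that adjustment, with a smallest possible raw p of 0.036 in the exact test, which Cnot1 did not reach without A (p = 0.11) or without C (p = 0.14). The share of the whole library fell at the same time, as given above. After division by it, 0 of 8 members had a raw p under 0.05 in the same exact permutation test, the direction turned for 5 of them, and the adjusted p lay between 0.58 and 0.98.

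ML-792 made few differences that passed the test among the members. Within each day, ML-792 was compared with DMSO over all entries at an adjusted p under 0.1. In total reads 1 of 8 members was called, against 21% of all entries called at any of the 4 days, and in labelled reads 3 of 8 were called, against 2.29%. These 3 were lower with ML-792. Whole libraries had lower mean labelled shares with ML-792 too, at 2.83%, 1.06%, 0.96% and 0.84% at days −2, 1, 3 and 7. The median entry of labelled reads differed by −0.18, −0.29, −0.10 and −0.36 on the log2 scale. With labelled library sizes 1 member was called, Zfp36. At day −2, 0% of entries were called in either readout by edgeR or by DESeq2, with 346 entries of total reads and 77 of labelled reads at an unadjusted p under 0.05. How long those cells had been with ML-792 is not stated, so the 0% may reflect a short exposure. At day 7 the share called was 9.74% in total and 0.869% in labelled reads.

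**Figure D4:**
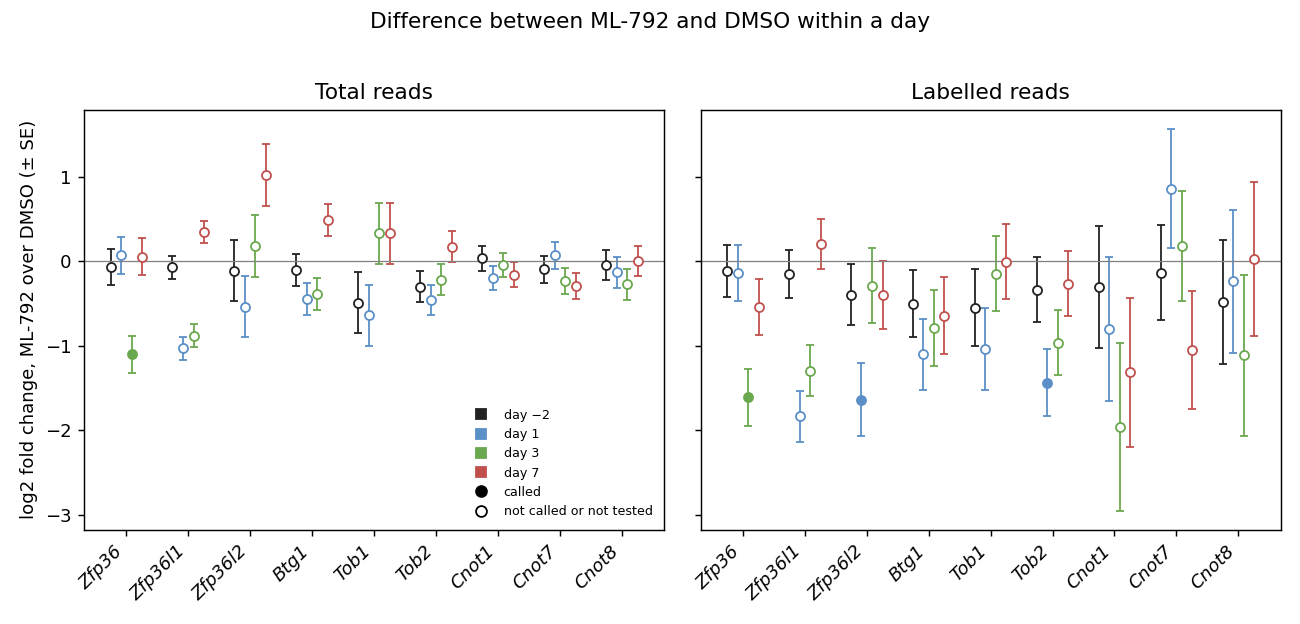
Fitted log2 fold change of ML-792 over DMSO (y axis) for each member (x axis) at the 4 days (colour), in total reads at the left and labelled reads at the right. Bars are 1 SE, filled points passed an adjusted p of 0.1, and Zfp36l1 was not tested. The values for Zfp36l1 lie at −1.03 and −0.88 at days 1 and 3 in total reads and at −1.84 and −1.29 in labelled reads, and above 0 at day 7. Zfp36 departs from 0 at day 3, at −1.10 and −1.61.

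Zfp36 was lower with ML-792 at day 3. Its total reads at day 3 were 826, 970 and 897 with ML-792 against 1282, 2254 and 2237 with DMSO, so the groups did not overlap. The ML-792 libraries of day 3 still lay above those of day 1, at 698, 623 and 695, a step that was not tested within ML-792. The log2 difference was −1.10 ± 0.22 (SE), a 2.14-fold lower level (edgeR, adjusted p = 0.0012), where 13% of all entries were called. In labelled reads the values were 35.9, 62.1 and 39.7 against 91.5, 163 and 165. That difference was −1.61 ± 0.34 on the log2 scale (adjusted p = 0.0064), where 0.935% of entries were called, and it was lost without replicate A (adjusted p = 0.11) and without C (adjusted p = 0.28). At days −2, 1 and 7 the differences in total reads were −0.07 ± 0.21, 0.07 ± 0.22 and 0.05 ± 0.22. The interaction of day and treatment was called in total reads for Zfp36 (adjusted p = 0.034), but not without replicate A (adjusted p = 0.17) or C (adjusted p = 0.54). At the same day the summed pre-adipocyte markers were between 9842 and 11115 with ML-792 and between 4961 and 6404 with DMSO, while the summed adipocyte markers overlapped (411379 to 471035 against 374505 to 511501). The members of these lists did not move as one. Of the 6 pre-adipocyte markers, 3 had higher means with ML-792, led by Ly6a (4305 ± 274 against 369 ± 23.8, SD, n = 3 each) and Pdgfra (2669.6 ± 60.6 against 976 ± 155), and 3 had lower means, led by Dlk1 (2541 ± 687 against 3662 ± 636). Of the 7 adipocyte markers, Fabp4 (216210 ± 24591 against 139003 ± 54743) and Plin1 had higher means and 5 had lower ones, among them Adipoq (16858 ± 1689 against 31235 ± 4006) and Lpl (171449 ± 15130 against 231979 ± 24318). The part of these markers in the result was not tested.

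Zfp36l1, for which these values chose the set, was lower with ML-792 at days 1 and 3 and not at day 7. Its labelled reads at day 1 were 101, 58.5 and 108 with ML-792 against 384, 239 and 334 with DMSO. At day 3 they were 91.4, 52.0 and 34.7 against 126, 166 and 147, and at day 7 they were 92.1, 105 and 109 against 88.8, 78.1 and 97.8. The groups were apart at days 1 and 3, and they overlapped at days −2 and 7. The fitted log2 differences were −0.15 ± 0.28, −1.84 ± 0.30, −1.29 ± 0.30 and 0.21 ± 0.30 (SE) at days −2, 1, 3 and 7. In total reads they were −0.07 ± 0.13, −1.03 ± 0.13, −0.88 ± 0.13 and 0.35 ± 0.13. There the ML-792 libraries had 3287, 2718 and 2964 reads at day 1, 2226, 2146 and 2036 at day 3, and 2897, 3295 and 3223 at day 7. Those of day 7 lay above all ML-792 libraries of day 3 and all DMSO libraries of day 7. Among the other 8 members the labelled interaction had adjusted p between 0.42 and 0.99, with 0 called by edgeR or DESeq2 and 1 at an unadjusted p under 0.05, where 0.236% of all entries were called. By group means of normalized total reads, the order of Zfp36l1 was DMSO day −2, ML-792 day −2, DMSO day 1, DMSO day 3, ML-792 day 7, ML-792 day 1, DMSO day 7 and ML-792 day 3. Libraries of neighbouring groups in this order overlapped for the pair at day −2 and for ML-792 at days 7 and 1.

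The genes whose pattern over the 8 group means was most like that of Zfp36l1 are given as a description. In labelled reads, among 1829 genes with a mean of at least 20, Pearson's r was 0.996 for Fndc3b, 0.987 for Bcl10, 0.985 for Fkbp1a, 0.985 for Id1 and 0.983 for Fosl2. In total reads, among 9254 genes with a mean of at least 100, it was 0.991 for Dip2a, 0.989 for Tnfaip2, 0.989 for Abi1, 0.982 for Eml2 and 0.981 for Bcl10. Bcl10 was in both lists. The 8 points share their libraries and rest mostly on the fall after day −2.

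Zfp36l2 had labelled reads of 12.1, 17.9 and 9.38 with ML-792 at day 1 against 58.0, 26.1 and 37.9 with DMSO, with no overlap. The log2 difference was −1.64 ± 0.43 (SE; edgeR, adjusted p = 0.053), where 0.822% of all entries were called at day 1 and the median entry stood at −0.29. In total reads the difference was −0.54 ± 0.36 at day 1 (adjusted p = 0.57), and 1.02 ± 0.37 (adjusted p = 0.11) at day 7. The day 7 difference was called with DESeq2 (1.04, adjusted p = 0.056). By edgeR it was called with 1 entry per gene (adjusted p = 0.087) and without the filter on low counts (adjusted p = 0.00025). Without that filter the interaction in total reads was called as well (edgeR, adjusted p = 0.00028). Replicate B of ML-792 stood apart in total reads, with 733, 628 and 1314 at days 1, 3 and 7 against 405, 306 and 594 in A and 384, 298 and 425 in C. Without replicate B the total reads were called lower at days 1 and 3 (log2 difference −0.98 and −0.52, adjusted p = 0.0014 and 0.08), the sign at day 3 turned from 0.18, and the interaction was called (adjusted p = 0.0187 against 0.25). The labelled call was lost without replicate A (adjusted p = 0.52) and without C (adjusted p = 0.37). It was also lost with labelled library sizes (−1.44, adjusted p = 0.12), with the 6 libraries of the day alone (adjusted p = 0.15) and without the filter on low counts (adjusted p = 0.11).

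Among the BTG/TOB genes the labelled reads of Tob2 at day 1 were 23.1, 21.5 and 32.8 with ML-792 against 64.6, 82.7 and 64.0 with DMSO, with no overlap. This difference of −1.44 ± 0.40 (SE) on the log2 scale was called (edgeR, adjusted p = 0.078), but not without replicate A, B or C (adjusted p = 0.42, 0.26 and 0.29). It was not called with labelled library sizes (−1.25, adjusted p = 0.12), with the 6 libraries of the day alone (adjusted p = 0.11) or without the filter on low counts (adjusted p = 0.22). Its total reads at day 1 differed by −0.46 ± 0.18 (adjusted p = 0.2). With the replicate letter added to the model as a block, this difference was called (−0.46, adjusted p = 0.04). Btg1 had total reads of 433, 463 and 325 with ML-792 at day 1 against 607, 592 and 465 with DMSO. At day 7 the order was turned, with 399, 405 and 371 against 271, 291 and 272, and the groups did not overlap on either day. None of its differences within a day was called in the main test, with −0.10 ± 0.19, −0.45 ± 0.19, −0.39 ± 0.19 and 0.49 ± 0.19 on the log2 scale at days −2, 1, 3 and 7. With the replicate block, those at day 1 (−0.45, adjusted p = 0.068) and day 7 (0.49, adjusted p = 0.039) were called. Its interaction of day and treatment in total reads was called (adjusted p = 0.079), where 9.65% of all entries were, but not without replicate A, B or C (adjusted p = 0.59, 0.12 and 0.5). Tob1 had log2 differences between −0.64 and 0.33 in total reads with SE near 0.36, of which none was called in the main test. With the replicate block, its day 1 difference (−0.61, adjusted p = 0.066) and its interaction (adjusted p = 0.035) were called. Without replicate B, Tob1 was called lower at day 1 (log2 difference −0.54, adjusted p = 0.042) and higher at day 3 (0.54, adjusted p = 0.02), and its interaction was called (adjusted p = 0.0131 against 0.48).

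Total reads of Cnot1, Cnot7 and Cnot8 differed between treatments by −0.29 to 0.07 on the log2 scale over the 4 days, with SE of 0.14 to 0.18, and the smallest adjusted p was 0.35. In labelled reads none was called, with SE of 0.56 to 0.99. The widest 95% interval, for Cnot1 at day 3, ran from −3.90 to −0.02 on the log2 scale.

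Other genes of the decay machinery were taken from lists chosen with earlier results of these data known. Of 14 further CCR4-NOT, PAN and deadenylation genes tested in total reads, 0 were called at days 1, 3 or 7 in DMSO (edgeR, adjusted p under 0.01), and 0 with ML-792 at any day, with at most 2 at an unadjusted p under 0.05 in each comparison. Over all entries the shares called were 13.7%, 30.8% and 32.7% at the 3 days and 0%, 6.45%, 13% and 9.74% with ML-792 at the 4 days. DESeq2 called 2 of the list with ML-792 at day 1 and 0 elsewhere. The list's medians lay between −0.11 and 0.32 on the log2 scale. In labelled reads 8 of the 14 could be tested, and 2 were lower at day 3 and 2 at day 7, against 32.6% and 29.4% of all entries. These were Cnot6l (−2.35 ± 0.60, SE) and Pan3 (−1.94 ± 0.61) at day 3, and Cnot6 (−1.88 ± 0.51) and Paip2 (−1.48 ± 0.46) at day 7, on the log2 scale. Of 11 decapping and 5′ decay genes, 1 was higher and 1 lower at day 3, where 30.8% of all entries were called. These were Lsm1, part of a ring that binds shortened tails, at 1.70 ± 0.19 (SE) on the log2 scale, and the 5′ to 3′ exonuclease gene Xrn1, at −0.89 ± 0.22. Of 15 exosome and SKI genes, 5 rose and 0 fell at day 3, where 30.8% of all entries were called, 14.5% higher. They were led by Exosc5 (1.82 ± 0.22), which codes for a subunit of the exosome ring. At days 1 and 7, 2 and 3 of the list rose and 0 fell, where 13.7% and 32.7% of all entries were called. Of 15 other RNA-binding and miRNA effector genes, 1 rose and 1 fell at day 3 in total reads, Celf1 (0.66 ± 0.16) and Tnrc6c (−0.89 ± 0.17). In labelled reads of this list, 10 of 14 tested were lower at day 3 and 9 at day 7. Among all entries 30.8% and 27.7% were called lower. Celf1 was lower at day 7 (−2.32 ± 0.40). In labelled reads of the decapping list 1 of 9 was lower at day 3 and 2 at day 7, and of the exosome list 1 of 8 and 0.

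Of 4 further BTG and ZFP36 relatives, 2 passed the filter, and 1 of them was called. Btg2, an immediate-early gene that p53 can induce, fell and partly returned in DMSO. Its mean total reads in DMSO were 8220.2 ± 1295 (SD, n = 3) at day −2 and 865 ± 143 at day 1. They then came to 2626 ± 572 at day 3 and 1933 ± 244 at day 7. The log2 change was −3.25 ± 0.22 (SE) at day 1 (adjusted p = 7.6e-08). With ML-792 it was lower by 0.78 ± 0.19 at day 1 (adjusted p = 0.015). The difference at day 3 was −1.57 ± 0.19 (adjusted p = 4.0e-06), where the mean was 885 ± 92.6. In labelled reads the day 3 difference was −2.23 ± 0.34 (adjusted p = 4.2e-05).

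In the p38 and MK2 pathway, whose kinases phosphorylate ZFP36 and keep its target mRNAs stable, 2 of 6 genes were called with ML-792 at days 1 and 3 in total reads, against 6.45% and 13% of all entries, and 1 of 6 at day 7, against 9.74%. Dusp1, a phosphatase that switches p38 off, was lower by 0.59 ± 0.15 (SE) on the log2 scale at day 1, by 1.53 ± 0.16 at day 3 and by 0.54 ± 0.15 at day 7 (adjusted p = 0.033). Map2k6, a kinase that switches p38 on, was higher by 1.12 ± 0.27 and 1.48 ± 0.28. The adjusted p of both genes at days 1 and 3 were at or below 0.0216 (edgeR).

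Of 14 AU-rich mRNAs known as ZFP36 targets, 11 passed the filter in total reads. In DMSO 7 were lower and 1 higher at day 1, against 13.7% of all entries called at that day, and the list's median was −2.38 on the log2 scale against 0.02 over all entries. Ptgs2, the inducible cyclooxygenase, fell from 2412 ± 1262 (SD, n = 3) to 123 ± 35 normalized reads, while Vegfa, the angiogenic growth factor, rose from 1155 ± 179 to 2429 ± 402. With ML-792 at day 1, 4 were higher and 1 lower, against 6.45% of all entries called, with a median of 0.84. The higher ones were led by Nfkbiz, a co-regulator of NF-κB, at 1.29 ± 0.18 (SE) on the log2 scale, and the chemokine gene Cxcl1 at 1.12 ± 0.23. The lower one was Vegfa at −1.20 ± 0.17. At day 3, where 13% of all entries were called, 2 were higher, with the cyclin gene Ccnd1 at 1.72 ± 0.13, and 1 was lower, again Vegfa, and the list's median was −0.02. At day 7, 2 were higher, against 9.74% of all entries called. In labelled reads 10 of the 14 could be tested. At day 1 in DMSO 8 were lower and 0 higher, against 18.5% of all entries called. The list's median was −4.31 on the log2 scale, against −1.23 over all entries. With ML-792, 2 were higher and 1 lower at day 1, against 0.822% of all entries called, with a median of 0.60. At day 3, 0 were higher and 2 lower, against 0.935%, with a median of −0.21. No test set these targets against the members.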

How the data were processed

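SLAMseq libraries of 3T3-L1 cells were mapped by the authors to mm10 with SlamDunk and counted on RefSeq 3′UTRs; the deposited tables hold raw counts of total and of labelled reads for 91830 entries. Of the library columns, 6 per readout match no sample and were left out. The members and all gene lists were chosen with earlier results of these data known.

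The test was that of edgeR (version 4.0.16, with limma 3.58.1, under R 4.3.3). TMM factors of the total counts scaled both readouts. Entries with a minimum count of 10 (minimum total 15, filterByExpr over 8 groups) were tested by robust quasi-likelihood F-tests, in 12 DMSO libraries for the time course and in 24 for ML-792 and the interaction, with Benjamini-Hochberg adjustment over all entries (26563 total, 10589 labelled). Thresholds were 0.01 and 0.1. SE is the log2 change over the square root of F. DESeq2 1.42.0 was an alternative. The fits were tested on simulated data. Genome sequence was GRCm38.p6, in which 26923 of 26923 entries had the T count that the tables give. From each list, at most the 2 called genes with the largest change in each direction were named. Libraries A, B and C are called biological replicates in the methods.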

Additional observations from a re-analysis of the deposited data

Results flagged for a closer look

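Zfp36 in total reads differed between ML-792 and DMSO by an amount that changed with the day, by a test of the interaction itself (edgeR quasi-likelihood F-test, adjusted p = 0.034). The call was lost without replicate A (adjusted p = 0.17) and without C (adjusted p = 0.54). The log2 differences were −0.07, 0.07, −1.10 and 0.05 at days −2, 1, 3 and 7, and all 3 ML-792 libraries lay below all 3 DMSO libraries at day 3.

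Btg1 in total reads passed the same test with an adjusted p of 0.079. This call was lost without replicate A, B or C (adjusted p = 0.59, 0.12 and 0.5) and without the filter on low counts (adjusted p = 0.28). The log2 differences of Btg1 were −0.10, −0.45, −0.39 and 0.49 at days −2, 1, 3 and 7, and the libraries of the treatments did not overlap at days 1, 3 and 7, with those of ML-792 lower at days 1 and 3 and higher at day 7.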

How the results depend on the processing

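The count of members called in total reads over the DMSO time course was 6 and stayed between 4 and 7 in all alternatives run. For ML-792 within a day in total reads the count of 1 became 3 with DESeq2, 3 without the filter on low counts, 2 with 1 entry per gene and 4 with the replicate block (Zfp36, Btg1 at days 1 and 7 with adjusted p = 0.068 and 0.039, and Tob1 and Tob2 at day 1 with 0.066 and 0.04), and 1 to 3 when a replicate letter was left out. In labelled reads the count of 3 became 1 without the filter, 1 with labelled library sizes and 1 with the 6 libraries of a day alone, and 0 to 2 without a letter. The interaction count of 2 in total reads became 0 to 3 without a letter and 3 with the replicate block, which added Tob1 (adjusted p = 0.035), and that of 0 in labelled reads became 1 with the replicate block (Zfp36, adjusted p = 0.072) and 0 without any letter. The labelled time course count of 4 became 2 to 6 without a letter. The count of 8 for the labelled share, adjusted here over the 8 members alone, became 0 when divided by the library's share, and 7 to 8 without a letter. That division turned the difference (day −2 minus later, as a ratio) to −0.66 for Zfp36, −1.06 for Zfp36l2, −0.56 for Tob1, −0.73 for Tob2 and −0.13 for Cnot1. Zfp36l2 at day 3 with ML-792 ranged from −0.52 to 0.54 when a letter was left out, and turned to −0.52 without replicate B. Group means were taken out to compare the letters. Total reads of libraries with the same letter then correlated at 0.19 on average, against −0.09 for different letters. Of the 84 same-letter pairs, 68 were above 0.1. In labelled reads the averages were 0.07 and −0.04. Libraries of a letter thus shared some variation that the main tests did not model, and the block counts above take it in. With the longest entry of each symbol 7 members could be tested in labelled reads. An alternative share, less the 1st percentile of the library, was chosen after seeing the data and left 8 calls. The causes were not tested. Depth limits the labelled reads of the Cnot genes most.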
